A study of Drosophila melanogaster with 3 samples.

Results

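The 8 genes described here, sesB, blw, ATPsyn-beta, ATPsyn-gamma, ATPsyn-b, ATPsyn-d, ATPsyn-Cf6 and CG3560, were chosen by symbol, and all 8 were found among the 15682 genes listed. They belong to the last steps of mitochondrial ATP production and were measured by RNA-seq in 3 libraries of Drosophila melanogaster males aged 10 days. All 3 libraries form 1 group, with RNAi against Ptx1 (the fly Pitx gene), a homeodomain transcription factor gene, in skeletal muscle. The sample titles name Mhc-Gal4, a driver built on the promoter of the muscle myosin heavy chain gene. The RNAi is thus directed to muscle while other tissues keep the untargeted gene. All 3 titles also name PtxRNAi2, and the titles do not say what its number stands for. The labels do not say whether the libraries came from separate pools of flies, and the spread between them may in part be technical. Control libraries were not analysed here, so the values are levels in muscle-directed Ptx1 RNAi and the differences between its libraries, not effects of the RNAi.

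ATP synthase sits in the inner mitochondrial membrane and lets protons flow back into the matrix. This flow turns a ring of c subunits and the central stalk, whose rotation inside the catalytic head of alternating alpha and beta subunits drives ATP synthesis, while a peripheral stalk holds the head still. The adenine nucleotide carrier then exports the ATP in exchange for ADP. Flight muscle is packed with mitochondria and depends on this supply. How much of the RNA in these libraries came from flight muscle was not measured.

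Of the 8 genes, 6 encode ATP synthase subunits: blw (alpha) and ATPsyn-beta (beta) of the catalytic head, ATPsyn-gamma of the central stalk, and ATPsyn-b, ATPsyn-d and ATPsyn-Cf6 (coupling factor 6) of the peripheral stalk. The carrier is encoded by sesB. The remaining gene, CG3560, is listed in the RefSeq gene table as UQCR-14, a subunit of respiratory complex III, and is therefore neither an ATP synthase subunit nor a carrier. ATPsyn-d is the stalk subunit d (now ATPsynD), not the delta subunit of the head, which the files list as l(1)G0230.

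The libraries held 35988267, 50794384 and 52675322 gene counts. Levels are given as CPM, the counts of a gene after scaling the gene counts of every library to the same round total, with mean ± SD over n = 3 libraries. All 17 muscle marker genes reached 1 CPM in every library, as did 10 of 10 gut, 9 of 10 fat body, 9 of 9 matched neuron and glia and 10 of 10 hemocyte markers, against 1 of 12 testis and accessory gland markers. Of all 15682 genes listed, 9579 reached 1 CPM in every library. Some markers lay near that limit, such as lab (gut) and Yp1 (fat body) at means of 1.40 and 1.41 CPM. Summed, the gut and fat body lists averaged 10157 and 15228 CPM. The libraries thus contained RNA of tissues other than muscle. In such bulk samples fewer cells of a type and less RNA per cell cannot be told apart.

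Together, the 8 genes held 1.45%, 1.39% and 1.43% of all gene counts in libraries 1, 2 and 3, a mean of 1.42 ± 0.0292%. The exact 95% intervals, 1.447 to 1.454%, 1.389 to 1.396% and 1.426 to 1.432%, cover counting error only and did not overlap. The summed share was thus highest in library 1 and lowest in library 2.

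**Figure D1:**
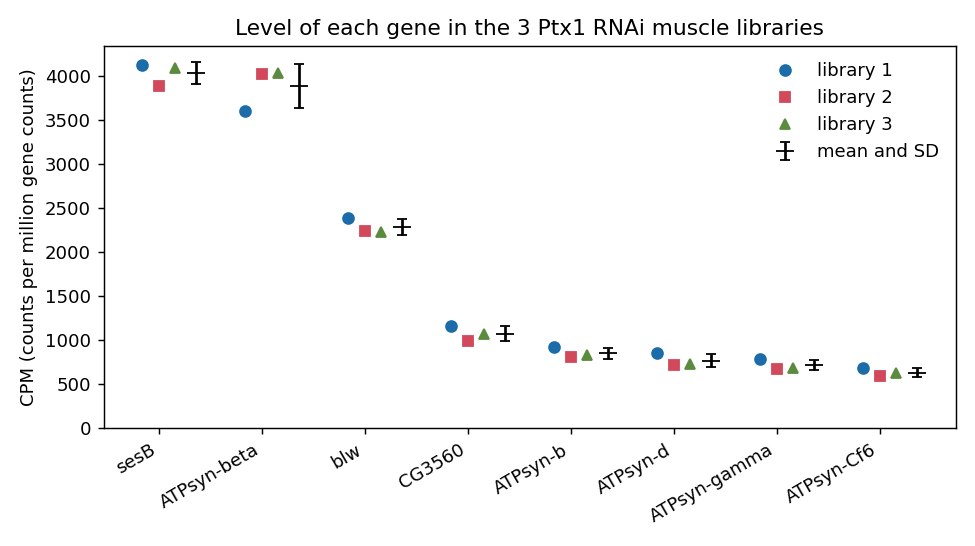
CPM of each of the 8 genes in the 3 Ptx1 RNAi muscle libraries (points), with the mean and SD over the libraries (black bars), ordered by mean CPM. The carrier gene sesB and ATPsyn-beta lie close together at the top, near 4032 and 3885 CPM, and ATPsyn-beta has its lowest point in library 1, whereas the other genes have their highest point there.

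The carrier gene sesB had 148292, 197333 and 215397 counts, or 4121, 3885 and 4089 CPM in libraries 1, 2 and 3. Its mean of 4032 ± 128 CPM placed it 15th among all genes by counts, and its SD of 3.17% of the mean was the smallest of the 8. Library 2 was the low one, and libraries 1 and 3 had overlapping counting intervals. Ant2, a second adenine nucleotide carrier gene, overlaps sesB in the RefSeq gene table and had only 73, 83 and 113 counts, or 2.03, 1.63 and 2.15 CPM. The count of sesB was therefore 2031, 2378 and 1906 times that of Ant2, with exact 95% intervals of 1616 to 2592, 1918 to 2985 and 1585 to 2313 that overlap between all libraries. Reads labelled ambiguous made up 2.74%, 2.35% and 2.44% of listed counts in libraries 1, 2 and 3, in a row that names no gene. How many of them lay on these overlapping genes is not given, which leaves the low count of Ant2 uncertain. The same limit holds for ATPsyn-beta, which overlaps CG11076 in that table (48.6 ± 1.63 CPM), and for CG3560, which overlaps CG32576 (18.6 ± 2.12 CPM).

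In the catalytic head, blw stood at 2386, 2242 and 2229 CPM in libraries 1, 2 and 3, with a mean of 2286 ± 87.2 CPM. It was highest in library 1, and libraries 2 and 3 had overlapping counting intervals. Its partner ATPsyn-beta, which carries the catalytic sites, stood at 3602, 4019 and 4033 CPM, with a mean of 3885 ± 245 CPM. This was the opposite order: ATPsyn-beta was lowest in library 1, and libraries 2 and 3 again had overlapping intervals. Counts of ATPsyn-beta were 1.51 times those of blw in library 1, with an exact 95% interval of 1.497 to 1.523, whereas the ratio was 1.79 in library 2 (1.779 to 1.805) and 1.81 in library 3 (1.797 to 1.823). Since both counts come from the same library, this ratio does not depend on how the libraries are scaled. It is a ratio of counts uncorrected for transcript length, and no test across libraries was run on it.

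The gene of the rotating central stalk, ATPsyn-gamma, had 782, 678 and 684 CPM, with a mean of 715 ± 58.5 CPM. It was high in library 1, and the counting intervals of libraries 2 and 3 overlapped. Its counts were 0.217, 0.169 and 0.170 times those of ATPsyn-beta in libraries 1, 2 and 3, so that library 1 also stood apart in this ratio.

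The peripheral stalk genes all peaked in library 1 and had their lowest level in library 2. ATPsyn-b, whose product spans the membrane and reaches up the side of the head, had 922, 804 and 827 CPM (mean 851 ± 62.8 CPM). ATPsyn-d had 852, 714 and 734 CPM (mean 766 ± 74.5 CPM), and its highest value was 1.19 times its lowest, the widest ratio of the 8 genes. ATPsyn-Cf6 had 683, 592 and 622 CPM (mean 632 ± 46.1 CPM). For each of these genes the counting intervals of the libraries did not overlap. Such intervals cover counting error only and are narrow for genes this abundant. How many of all genes separate in this way was not counted, so whether it is particular to these genes cannot be said.

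CG3560, the complex III gene, followed the same order, with 1157, 992 and 1073 CPM in libraries 1, 2 and 3 and a mean of 1074 ± 82.5 CPM. Its level in library 3 lay midway, and no counting intervals overlapped. UQCR-14L, a gene related to it by name and looked up after values had been seen, had 0, 0 and 2 counts.

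By mean CPM the order was sesB, ATPsyn-beta, blw, CG3560, ATPsyn-b, ATPsyn-d, ATPsyn-gamma and ATPsyn-Cf6. Ranges over the libraries overlapped between sesB and ATPsyn-beta, between ATPsyn-b and ATPsyn-d, between ATPsyn-d and ATPsyn-gamma, and between ATPsyn-gamma and ATPsyn-Cf6, so the spread over libraries did not separate these neighbours. Within libraries, the order from ATPsyn-b through ATPsyn-d and ATPsyn-gamma to ATPsyn-Cf6 held in 3 of 3, with counting intervals that did not overlap, whereas sesB exceeded ATPsyn-beta in libraries 1 and 3 and not in library 2. The ranges of ATPsyn-beta, blw and CG3560 did not overlap with that of the next gene in the order. A longer transcript gives more counts. With no correction for length, the order is that of counts and not of transcript numbers.

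None of the 8 genes was called as differing between the libraries. In an edgeR goodness-of-fit test over 10522 genes, 216, or 2.05%, were called at an adjusted p below 0.05, meaning that their spread over the 3 libraries exceeded the trend of genes with similar levels. Each of the 8 genes had a Benjamini-Hochberg adjusted p of 0.99996 in this edgeR test. The lowest unadjusted p of that edgeR test was 0.564, for ATPsyn-d. Thus 0 of 8 passed an unadjusted 0.05 either, against 567 of the 10522 genes tested. With shares this small among all genes, 0 of 8 does not set these genes apart. At these depths, differences of 6.07% (sesB) to 19.3% (ATPsyn-d) between the highest and the lowest library exceeded counting error, as the counting intervals show, and were not called.

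**Figure D2:**
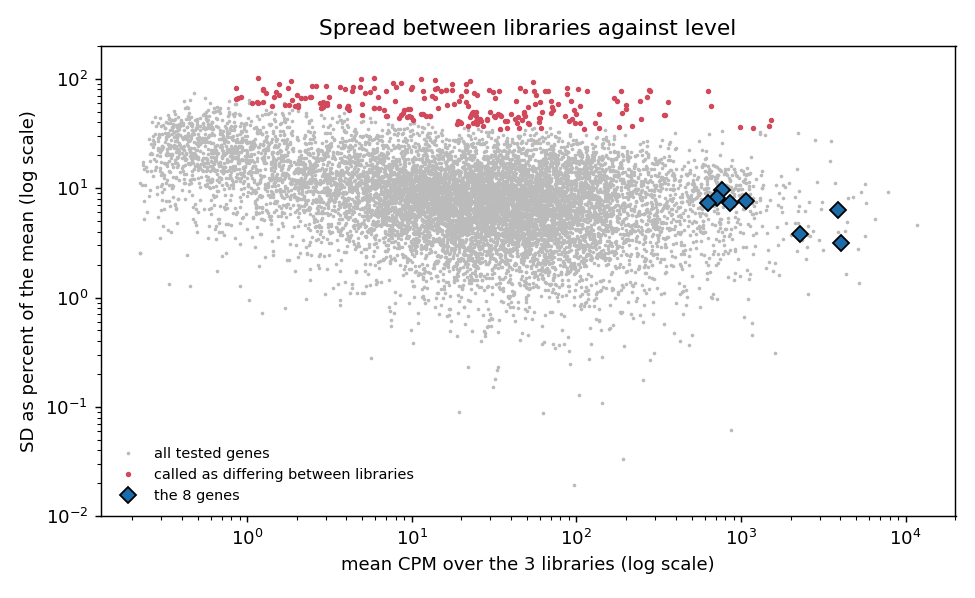
SD over the 3 libraries as a percent of the mean (vertical, log scale) against mean CPM (horizontal, log scale) for all 10522 tested genes (grey), the 216 called as differing between libraries (red) and the 8 genes (blue diamonds). The 8 genes lie at the abundant end with SDs of 3.17 to 9.72% of the mean, within the cloud of genes that were not called.

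The median SD of the 8 genes was 7.34% of the mean, beside 8.48% over all tested genes. Over the 297 tested genes at or above the mean of ATPsyn-Cf6, the 8 included, it was 7.64%, close to that of the 8. For sesB and blw, 86.8% and 82.4% of tested genes had a larger relative spread, whereas for ATPsyn-d 42.8% did. The carrier and the alpha subunit were thus the steadiest of the 8 across libraries, and the stalk genes lay near the middle of all genes, as the plot of spread against level shows.

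The other genes of the ATP synthase had the same order of libraries as the stalk genes. CG1746, for the c subunit of the rotating ring, had 2295, 1945 and 2125 CPM in libraries 1, 2 and 3 (mean 2122 ± 175 CPM). Oscp, for the protein that joins the peripheral stalk to the head, had 1124, 991 and 1031 CPM (mean 1049 ± 67.7 CPM). The membrane part genes ATPsynG (subunit g), CG3321 (subunit e) and CG4692 (subunit f) averaged 842 ± 54.7, 637 ± 58.2 and 571 ± 58.4 CPM. The epsilon subunit gene sun averaged 303 ± 13.7 CPM. The gene of the delta subunit, l(1)G0230, added after values had been seen, averaged 468 ± 40.2 CPM. CG13551, listed as IF1, the inhibitor that binds the head when the proton gradient fails, had 112, 94.5 and 102 CPM, a mean of 103 ± 8.99 CPM. Library 1 gave the highest and library 2 the lowest level of all 8 of these genes, with CPM as with TMM and DESeq2 scaling, and edgeR called 0 of them.

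**Figure D3:**
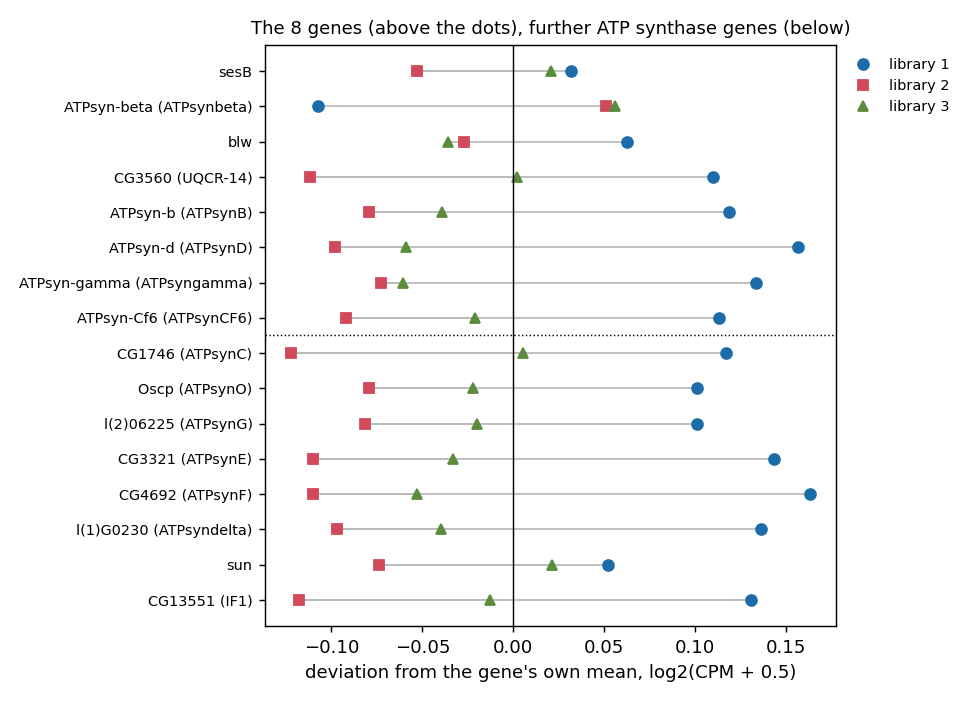
Deviation of each gene from its own mean over the 3 libraries, in log2(CPM + 0.5), for the 8 genes (above the dotted line) and 8 further ATP synthase genes (below it), with current symbols in parentheses. Library 1 lies to the right for every gene except ATPsyn-beta, which has −0.11 in library 1 and 0.05 and 0.06 in libraries 2 and 3.

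Of the 13 nuclear ATP synthase subunit genes, 12 were highest in library 1, with ATPsyn-beta the exception, and 11 were lowest in library 2. Among the 9579 genes with at least 1 CPM in each of the libraries, 4184, or 43.7%, were highest in library 1. Library 2 was the lowest for 4321 of them, or 45.1%. Both shares were higher among abundant genes. Looked at after values had been seen were 235 tested genes at or above the mean of ATPsyn-Cf6 that are in no list. Of these, 143, or 60.9%, were highest in library 1 and 147, or 62.6%, lowest in library 2. Library 1 was the lowest, as for ATPsyn-beta, for 70 of them and for 4108 of the 9579 genes, so that this was not rare. On the log2 scale, the median deviation of the 8 genes was 0.11 in library 1, −0.08 in library 2 and −0.03 in library 3, beside 0.0042, −0.01 and 0.01 over all detected genes and 0.06, −0.06 and −0.0034 over those 235 abundant genes. TMM and DESeq2 scaling kept library 1 highest for 7 of the 8 and lowest for ATPsyn-beta; the highest library for ATPsyn-beta was 3 with CPM and 2 with either scaling. With either scaling ATPsyn-gamma was lowest in library 3, so that 10 of the 13 subunit genes were then lowest in library 2.

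The 2 ATP synthase subunits encoded in mitochondrial DNA were not counted. The rows mt:ATPase6 and mt:ATPase8, for subunit a of the proton channel and a small membrane subunit, had 0 counts in every library, as did all 37 rows of mitochondrial genes. A count of 0 allows up to 0.0834, 0.0591 and 0.0570 CPM in libraries 1, 2 and 3, for counting error only. As every mitochondrial row was at 0, including the ribosomal RNAs that all cells use, these rows say nothing of the level of the transcripts.

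Copies of the subunit genes were counted at or near 0. CG5389, listed as ATPsynbetaL, had 6, 6 and 2 counts, so that ATPsyn-beta exceeded it 21603-fold, 34024-fold and 106228-fold, with exact 95% intervals of 9925 to 58868, 15631 to 92713 and 29407 to 877169. CG12027 (ATPsynCF6L) had 0, 0 and 3 counts, CG7211 (ATPsynGL) 4, 3 and 2, CG31477 (ATPsynepsilonL) 8, 8 and 10, and CG17300 3, 2 and 6. None of these 5 copies reached 1 CPM in any library, and the testis marker genes were low as well. Their counts are too few to compare between libraries.

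Further mitochondrial carrier and pore genes ranged widely in level. CG9090 (Mpcp1) and Mpcp (Mpcp2), which encode carriers that bring phosphate for ATP synthesis into the matrix, averaged 1034 ± 66.5 and 718 ± 70.9 CPM and were highest in library 1. The pore gene porin, whose product lets nucleotides cross the outer membrane, had 1672, 1723 and 1715 CPM (mean 1703 ± 27.1 CPM) and, like ATPsyn-beta, was lowest in library 1. Its relative Porin2 averaged 4.26 ± 0.443 CPM. The carrier genes Ucp4A and Bmcp averaged 140 ± 7.62 and 56.6 ± 2.56 CPM, and sea had 1, 2 and 9 counts. Of the 7 genes tested in this list, edgeR called 0.

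The respiratory chain, which builds the proton gradient that ATP synthase uses, was measured in the same libraries. Of 53 matched genes of complexes I to IV and cytochrome c, 48 peaked in library 1, 48 had their lowest level in library 2, and edgeR called 0. The summed CPM of complex I was 17864, 15776 and 16614 in libraries 1, 2 and 3, with means from 114 ± 11.5 CPM for CG5548 (ND-B18) and 130 ± 16.1 CPM for CG12859 (ND-B15) to 1300 ± 101.4 CPM for CG32230 (ND-MLRQ) and 2479 ± 55.5 CPM for CG9140 (ND-51). Complex II summed to 4899, 4611 and 4646 CPM, with SdhA at 2023 ± 74.8, SdhB at 1427 ± 89.4, SdhC at 784 ± 106 and CG10219 (SdhD) at 485 ± 38.5 CPM. Complex III, to which CG3560 belongs, summed to 8486, 7291 and 7611 CPM without it. Its means ran from 380 ± 37.7 CPM for CG14482 (UQCR-6.4) and 654 ± 54.0 CPM for ox to 1504 ± 118 CPM for CG3731 (UQCR-C1) and 1750 ± 117 CPM for RFeSP, the Rieske iron-sulfur protein gene. The list of complex IV and cytochrome c summed to 9215, 7800 and 8179 CPM, with means from 138 ± 15.7 CPM for CG9603 (COX7A) and 513 ± 58.5 CPM for CoVIb (COX6B) to 1116 ± 109 CPM for CoVa (COX5A) and 1692 ± 152 CPM for CoIV (COX4).

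**Figure D4:**
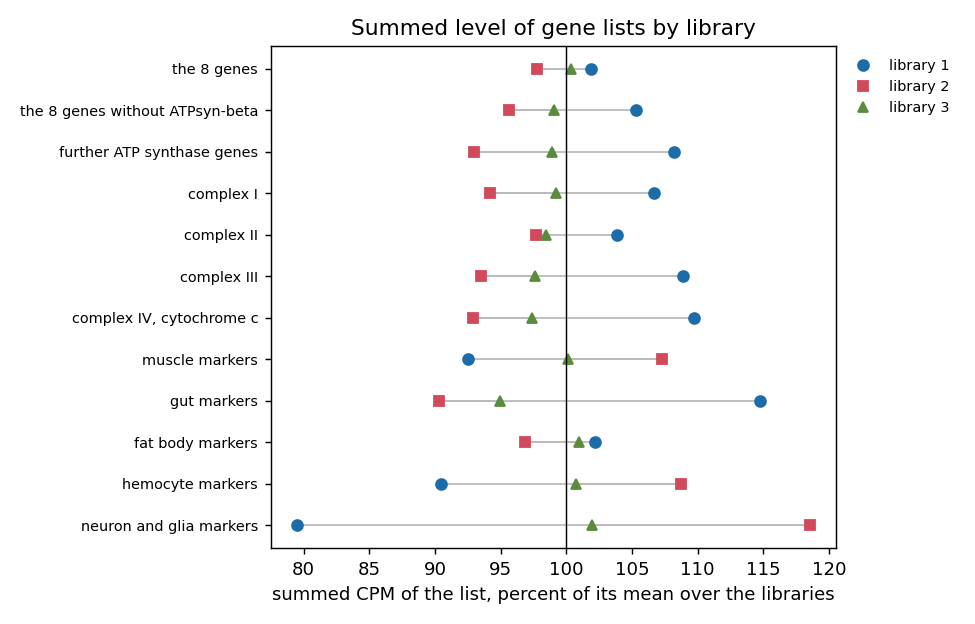
Summed CPM of each gene list in libraries 1, 2 and 3, as a percent of its mean over the libraries. The 8 genes, the chain complexes and the gut and fat body markers have their highest sum in library 1. Muscle, hemocyte and neuron and glia markers have their lowest sum there. Without Cyp4g1 (not drawn) the fat body sum is lowest in library 1. The spread of the muscle sum is mostly that of bt and sls, and without them (not drawn) it is still lowest in library 1.

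Markers of other tissues are given beside these values. Of them, edgeR called 1 of 10 gut genes, CG9468, and 1 of 9 neuron and glia genes, Syx1A. It called 0 of the muscle, fat body, hemocyte and testis and accessory gland genes tested. The lists hold no photoreceptor markers. Outside them, the phototransduction genes Arr1 and Arr2 averaged 185 and 278 CPM, with SDs of 76.8% and 78.5% of the mean. Both were called (edgeR adjusted p = 2.6e-23 and 9.5e-26). Summed muscle markers were 24453, 28349 and 26465 CPM in libraries 1, 2 and 3, where 9 of 17 genes were highest in library 1 and the giant sarcomere genes bt and sls stood at 2544, 4452 and 3566 CPM and at 2036, 3594 and 2798 CPM (edgeR adjusted p = 0.297 and 0.271). Without bt and sls, left out after values had been seen, the muscle sum was 19873, 20304 and 20101 CPM, and the median deviation of all 17 genes was 0.03, −0.05 and 0.02 on the log2 scale, the other way from the sum. Gut markers summed to 11653, 9172 and 9646 CPM, with 8 of 10 highest in library 1. Fat body markers summed to 15566, 14749 and 15371 CPM, with 5 of 9 detected genes highest and 4 lowest in library 1; without Cyp4g1, left out after values had been seen, the sum was 11517, 11912 and 11919 CPM, lowest in library 1. Neuron and glia markers summed to 768, 1145 and 985 CPM, with 9 of 9 lowest in library 1, and hemocyte markers to 719, 865 and 801 CPM, with 8 of 10 lowest there. Testis and accessory gland markers summed to 4.83, 2.46 and 3.34 CPM, and Acp26Aa and Acp70A were at 0 in every library. Library 1 was also the shallowest and had 9.80% of its listed counts in no annotated feature, against 11.9% and 11.6% in libraries 2 and 3. The part of tissue content, depth and counting in the differences of the 8 genes was not tested.

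The genes whose pattern over the 3 libraries came nearest to that of the summed 8 genes were eIF3-S9, CG5612, raw, CG9894 and CG9775, among 1911 other genes with a mean of 100 CPM or more. The measure was the largest absolute difference in log2 deviation over the libraries, which ran from 0.0043 for eIF3-S9 to 0.0059 for CG9775. With only 3 libraries such likeness is common, and 73 of the 1911 genes came within 0.02. The summed pattern itself was small, at 0.03, −0.03 and 0.0053 in libraries 1, 2 and 3, as ATPsyn-beta went against the rest.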

How the data were processed

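RNA-seq was analysed in 3 libraries of 1 group, muscle-directed Ptx1 RNAi. Each deposited file gives raw counts by gene symbol, with no normalization by the authors. CASAVA 1.7, BWA, STAR and HTSeq are named, without their roles, per the submitters' processing notes, which also name the mouse build mm9. The fly build and whether counting used strand are not given in the sources used here; coordinates are left out. Another 6 columns hold values of samples that the labels do not describe, and were not used in any step. The 5 summary rows that name no gene held 22.0%, 25.1% and 24.8% of listed counts in libraries 1, 2 and 3 and were left out.

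CPM used the total of all gene rows. Differences between libraries were tested across all genes with edgeR 4.0.16 (intercept-only fit, TMM, filterByExpr, trended dispersion, chi-square goodness of fit on 2 degrees of freedom, Benjamini-Hochberg over all genes tested, threshold 0.05), in R 4.3.3. The procedure was also run on simulated data whose planted changes were larger than the differences of the 8 genes. Its power for differences as small as theirs was not tested. Log2 values carry a pseudocount of 0.5. Intervals are exact Clopper-Pearson at 95%, and the limit at a count of 0 is 3 counts. Of 156 list entries, 153 matched a row, 68 through the RefSeq gene table (Release 6 plus ISO1 MT); ND-13B, UQCR-11 and nSyb did not. Named are the 8 genes, the lists of further ATP synthase genes, copies and carriers, the 2 highest and lowest genes of each chain complex, and the 5 genes nearest in pattern. Members and lists were chosen with earlier results of these data known. The planned level per coding length was not computed, because coding lengths were not used here. Alternatives were DESeq2 1.42.0 size factors, no filter, a common dispersion, other totals and leaving out each library.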

Additional observations from a re-analysis of the deposited data

How the results depend on the processing

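The number of the 8 genes called as differing between libraries was 0 in every alternative run: DESeq2 size factors, no filter on low counts, a common dispersion and each library left out. Over all genes, 216 were called, and 89 to 124 with 1 library left out, where fewer libraries remain; leaving out library 1 gave 108, library 2 gave 89 and library 3 gave 124. The count was 210 with DESeq2 size factors, 262 with no filter and 244 with a common dispersion. The summed share of the 8 genes was 1.42%, and 1.41 to 1.44% with 1 library left out. With totals that omit the 10 genes with the most counts, which are smaller by construction, it was 1.52%, and the means of sesB, blw and ATPsyn-beta moved by more than their SD there, to 4305, 2440 and 4148 CPM. Under the other scalings and with each library left out, all 8 means stayed within 1 SD. No paired analysis was possible because the libraries form a single group. With 3 libraries of 1 group, the data limit what can be said to levels and their spread.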
